A study of Homo sapiens with 6 samples.

Results

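The 4 HOX clusters were examined for SMAD2 binding by ChIP-seq, in which DNA bound by a protein is pulled down with an antibody and sequenced. The cells were Hs578T, a long-established breast cancer line of the triple-negative subtype. The clusters were taken as fixed windows on the human genome build hg19: HOXA at chr7:27130000-27250000, HOXB at chr17:46605000-46810000, HOXC at chr12:54330000-54450000 and HOXD at chr2:176955000-177056000. Every summit inside a window was a member, whatever its strength. A summit is the single base of highest signal in a called peak. The windows held 432 of the 79310 summits of the 4 deposited lists. The activin group (2 libraries) was treated for 1.5 h with activin A, at 50 ng/ml. The palbociclib group (2 libraries) had received 1 µM palbociclib for 24 h and the same activin A treatment. All ChIP libraries thus came from activin-treated cells, and each treatment had 1 input library. The labels do not say whether the replicates came from separate cultures, so p-values measure only the spread between these libraries, which may be technical. SMAD2 and cell-type markers were not measured as RNA or protein here, so the labels could not be checked against them.

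HOX genes encode homeodomain transcription factors that give cells their position along the body axis. In each cluster the genes lie side by side in the order in which they act along that axis, and the clusters also hold long noncoding RNAs and microRNAs. Polycomb and trithorax proteins set which stretch of a cluster is silent and which is active, and adult cells keep much of this pattern. Activin binds receptors that phosphorylate SMAD2, which enters the nucleus with SMAD4. SMAD2 in its main form contacts DNA poorly by itself and relies on SMAD4 and other partner factors. Palbociclib inhibits the kinases CDK4 and CDK6, which drive entry into the cell cycle.

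The RefSeq gene table used, of assembly GRCh38.p14, lists all 39 HOX genes: 11 in HOXA, 10 in HOXB, 9 in HOXC and 9 in HOXD. Their order along the chromosome was read from it, in the same direction for hg19, and no coordinates were transferred. At the higher coordinate HOXA ends with HOXA13, and from the lower to the higher coordinate HOXB runs from HOXB1 to HOXB13. HOXC runs from HOXC13 to HOXC4 and HOXD from HOXD13 to HOXD1. HOXA13 and HOXD13 pattern the most distal limb and the hindgut and genital region. The stretches that the HOX genes span hold or overlap 24 long noncoding RNAs, among them HOTAIR in HOXC, which is known for its link to metastasis in breast cancer. They hold or overlap 8 microRNAs, which include MIR10A in HOXB and MIR196B in HOXA. Because an hg19 annotation was not used here, no site is tied to a gene below, and sites are named by cluster and by distance in kb from the lower end of the window.

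Promoter sequences are shown for 3 genes of HOXA, the cluster with the most summits: HOXA2 near one end, HOXA7 in the middle and HOXA13 at the other end. Each line gives the 250 bases before the start of transcription from RefSeq (GRCh38.p14, minus strand of chromosome 7, 5′ to 3′). Capitals mark GTCTG or its reverse complement CAGAC, the core of the SMAD binding element, and GGCGC or its reverse complement GCGCC, a GC-rich sequence that SMADs also contact; overlapping matches are joined.
HOXA2: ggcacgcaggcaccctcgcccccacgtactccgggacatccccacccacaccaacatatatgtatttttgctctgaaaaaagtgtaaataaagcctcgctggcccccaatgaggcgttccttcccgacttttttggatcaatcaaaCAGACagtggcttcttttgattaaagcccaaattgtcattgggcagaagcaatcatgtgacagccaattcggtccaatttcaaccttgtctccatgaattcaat
HOXA7: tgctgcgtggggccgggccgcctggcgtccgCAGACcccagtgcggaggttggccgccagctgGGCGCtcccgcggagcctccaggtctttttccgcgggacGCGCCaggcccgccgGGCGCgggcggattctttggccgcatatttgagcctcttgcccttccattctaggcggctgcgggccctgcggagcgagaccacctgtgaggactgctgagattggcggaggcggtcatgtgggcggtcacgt
HOXA13: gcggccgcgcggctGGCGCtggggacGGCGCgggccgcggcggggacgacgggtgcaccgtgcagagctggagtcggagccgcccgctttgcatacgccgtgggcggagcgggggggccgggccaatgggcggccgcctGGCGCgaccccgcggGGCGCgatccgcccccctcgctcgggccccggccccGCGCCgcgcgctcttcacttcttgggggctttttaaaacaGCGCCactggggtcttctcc
The HOXA2 promoter held 1 match to the first motif and 0 to the second. The HOXA7 promoter held 1 and 3, and the HOXA13 promoter held 0 and 6. Promoter entries were matched for 20 of the 39 HOX genes: 9 in HOXA, 1 in HOXB, 2 in HOXC and 8 in HOXD. GTCTG or CAGAC was present in 6 of these 20, or 30%, against 37.8% of 27305 promoters of all genes. GGCGC or GCGCC was present in 15 of 20, or 75%, against 44.2% of all promoters. The entries of HOXC4 and HOXC5 hold the same 250 bases; with identical sequences counted once it was 14 of 19, or 73.7%, against 44.2%. The median GC content was 59% in the HOX promoters and 58% in all promoters. These matches are a description of letters, and no summit was placed on them.

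The lists differed in length, with 25553 and 7241 summits for activin (replicates 1 and 2) and 27290 and 19226 for palbociclib. Activin replicate 2 stands apart by its short list, and the values without it are given where they differ most. Read depth is unknown. Since each treatment had its own input for peak calling, treatment and input cannot be told apart.

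SMAD2 summits were dense in all 4 clusters and stopped near their edges. HOXA held 47 and 23 summits in the activin libraries (replicates 1 and 2, in this order throughout) and 43 and 44 in the palbociclib libraries. HOXB held 32 and 14 in the activin libraries and 26 and 33 in the palbociclib libraries. HOXC held 42 and 5 against 30 and 31, and HOXD held 22 and 4 against 18 and 18. In each cluster activin replicate 2 was lowest, and in HOXA, HOXC and HOXD activin replicate 1 was highest. Per 100 kb of window, HOXA held 39.2, 19.2, 35.8 and 36.7 summits in the libraries in that order, and HOXC held 35.0, 4.17, 25 and 25.8. HOXD held 21.8, 3.96, 17.8 and 17.8 per 100 kb. HOXB, the longest window, held 15.6, 6.83, 12.7 and 16.1.

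The neighbourhood of the clusters was nearly empty on most sides. Over the 4 lists together, the stretch of equal length below the window held 0 summits for HOXA, HOXB and HOXC and 5 for HOXD. The stretch above held 2 summits for HOXA, 12 for HOXC, 4 for HOXD and 53 for HOXB, the one flank with many. Extending every window by 20 kb on both sides added 0 summits. The nearest summit of any list below the window was 225 kb away for HOXA, 420 kb for HOXB, 208 kb for HOXC and 88.0 kb for HOXD. Above the window it was 25.2 kb away for HOXA, 84.3 kb for HOXB, 23.5 kb for HOXC and 78.2 kb for HOXD.

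**Figure D1:**
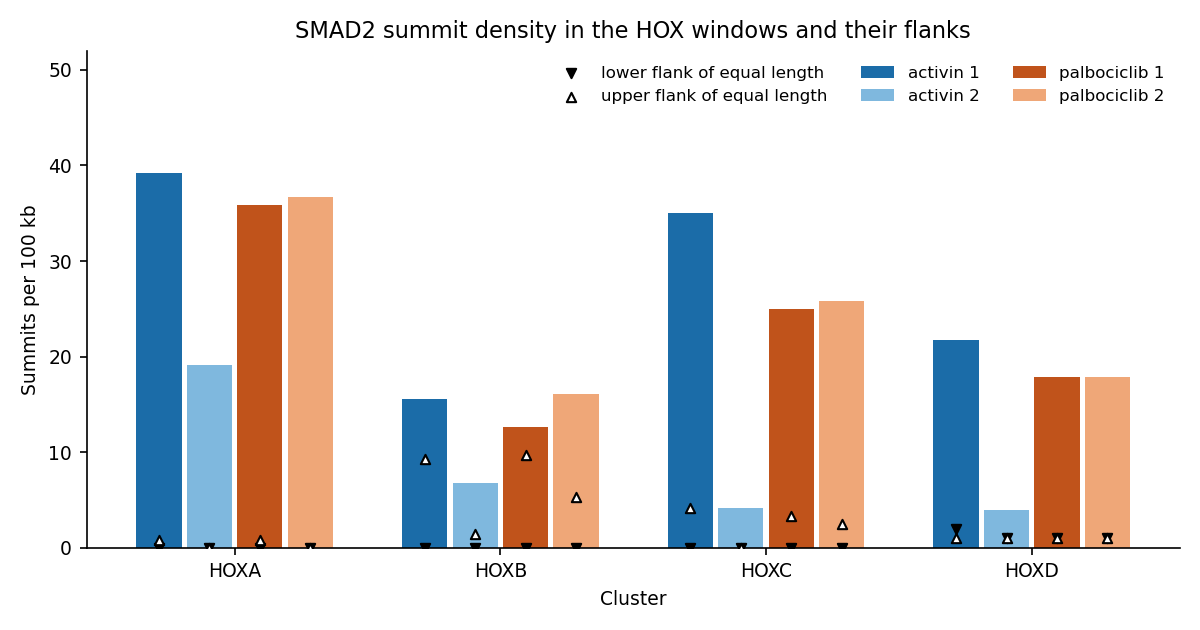
Bars give SMAD2 summits per 100 kb (y axis) in each HOX window for the 4 libraries; filled and open triangles give the density in the lower and upper flanks of equal length. HOXA reaches 39.2 per 100 kb in activin replicate 1, and the upper flank of HOXB holds 53 summits over the 4 lists.

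Few stretches of the genome held as many summits. The chromosomes were divided into tiles of each window's length, from the first base to the last summit of the lists, leaving out tiles that touch a HOX window. These tiles include gene-poor and unmappable stretches, and their median was 0 summits for each length. Of 25346 tiles of the HOXA length, 0 held the 157 summits that HOXA held over the 4 lists, and the highest tile held 125. The HOXA count was 50.5 times the mean of 3.11 per tile. HOXC, with 108 summits, was matched or exceeded by 2 of 25346 tiles. HOXB, with 105, was matched by 12 of 14842 tiles (0.0809%), and HOXD, with 62, by 37 of 30114 (0.123%). In single libraries, 1, 0, 1 and 0 tiles reached the HOXA count in the order of the libraries above. In activin replicate 2, 176 tiles reached the HOXC count and 292 the HOXD count, against 2 and 26 in activin replicate 1. These are ranks of density within each list, not tests.

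The share of a list that fell in the HOX clusters overlapped between the treatments. The share was 0.560% of all summits in activin replicate 1 (Wilson 95% interval 0.475 to 0.659) and 0.635% in activin replicate 2 (0.477 to 0.846). It was 0.429% in palbociclib replicate 1 (0.358 to 0.514) and 0.655% in palbociclib replicate 2 (0.551 to 0.780). The palbociclib libraries were thus the lowest and the highest, and the activin libraries lay between them. These intervals cover counting error only. Mean shares were 0.597% ± 0.0535 for activin and 0.542% ± 0.160 for palbociclib (SD, n = 2). The log2 ratio of palbociclib to activin was -0.17, and the exact permutation test gave p = 1 (two-sided); 2 against 2 libraries cannot go below 0.333. By cluster the log2 ratio was -0.35 for HOXA, -0.28 for HOXB, 0.32 for HOXC and 0.19 for HOXD. Over these 5 comparisons the exact permutation p-values were 0.667 or 1, and the Benjamini-Hochberg adjusted values were all 1. Activin replicate 2 had the highest share of the 4 libraries in HOXA (0.318%) and HOXB (0.193%). It had the lowest in HOXC (0.0691%) and HOXD (0.0552%), so each of the 4 cluster ratios leans on it. In HOXC, activin replicate 1 (0.164%) lay above both palbociclib libraries (0.110% and 0.161%).

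The libraries divided their HOX summits among the clusters in different ways. HOXA made up 32.9% of the HOX summits of activin replicate 1 and 36.8% and 34.9% of those of the palbociclib libraries. In activin replicate 2 it made up 50.0% (23 of 46). HOXC made up 29.4%, 25.6% and 24.6% in the same 3 libraries and 10.9% (5 of 46) in activin replicate 2. HOXB and HOXD lay between 22.2% and 30.4% and between 8.70% and 15.4%. The difference between the activin replicates in HOXA and HOXC was larger than any difference between activin replicate 1 and the palbociclib libraries.

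HOX summits were rarely among the strongest of their lists, and in 3 of the 4 lists most lay below the list's median. The score of a summit is the peak caller's −log10 of a p- or q-value, and its rank in the list was expressed as a percentile from 0 (weakest) to 100 (strongest). The median percentile of the HOX summits was 40.4 and 17.8 for activin and 51.9 and 38.1 for palbociclib; over a whole list it is about 50 by construction. Below the list's median lay 62.9% and 78.3% of the HOX summits under activin and 46.2% and 66.7% under palbociclib, so palbociclib replicate 1 was the exception. The strongest 10% of a list held 2 of 143 HOX summits in activin replicate 1 and 1 of 46 in activin replicate 2. It held 4 of 117 and 6 of 126 in palbociclib replicates 1 and 2. These are shares of 1.40%, 2.17%, 3.42% and 4.76%. HOXC had 0 summits in the strongest 10% of any list, and 63.3% to 100% of its summits lay below the median of their list. HOXB reached percentiles of 44.2 and 14.6 in the median in the activin libraries and 56.2 and 24.5 in the palbociclib libraries, so its replicates differed more than its treatments.

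In HOXB and HOXD, most summits of every library lay on the side of lower coordinates, while HOXA and HOXC had no side that was fuller in all 4 libraries. In the map of sites by library, HOXA sites run from 4.16 kb after the lower end of the window to 9.86 kb before its upper end. The side of the window above its midpoint, towards HOXA13, held 28 of 47 and 21 of 23 summits in the activin libraries and 19 of 43 and 29 of 44 in the palbociclib libraries. The share in activin replicate 2, 91.3%, lay above the 44.2% to 65.9% of the other libraries. In HOXD the side below the midpoint, towards HOXD13, held 17 of 22, 4 of 4, 14 of 18 and 15 of 18 summits in the same order. In HOXB the side below the midpoint, towards HOXB1, held 28 of 32, 13 of 14, 22 of 26 and 27 of 33. Its sites found in all 4 libraries lay from HOXB +62.6 kb to HOXB +118.9 kb of the 205 kb window, the last of them above the midpoint. They were thus nearer the midpoint than the lower end. A stretch of 71.4 kb in HOXB, from 46724938 to 46796322, held no summit in any of the 4 lists, and summits resumed beyond it near the HOXB13 end. HOXC had its longest gap, 23.8 kb, from 54333702 to 54357476, and both sides of its midpoint were filled, with 25 of 42, 2 of 5, 13 of 30 and 19 of 31 summits above it.

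**Figure D2:**
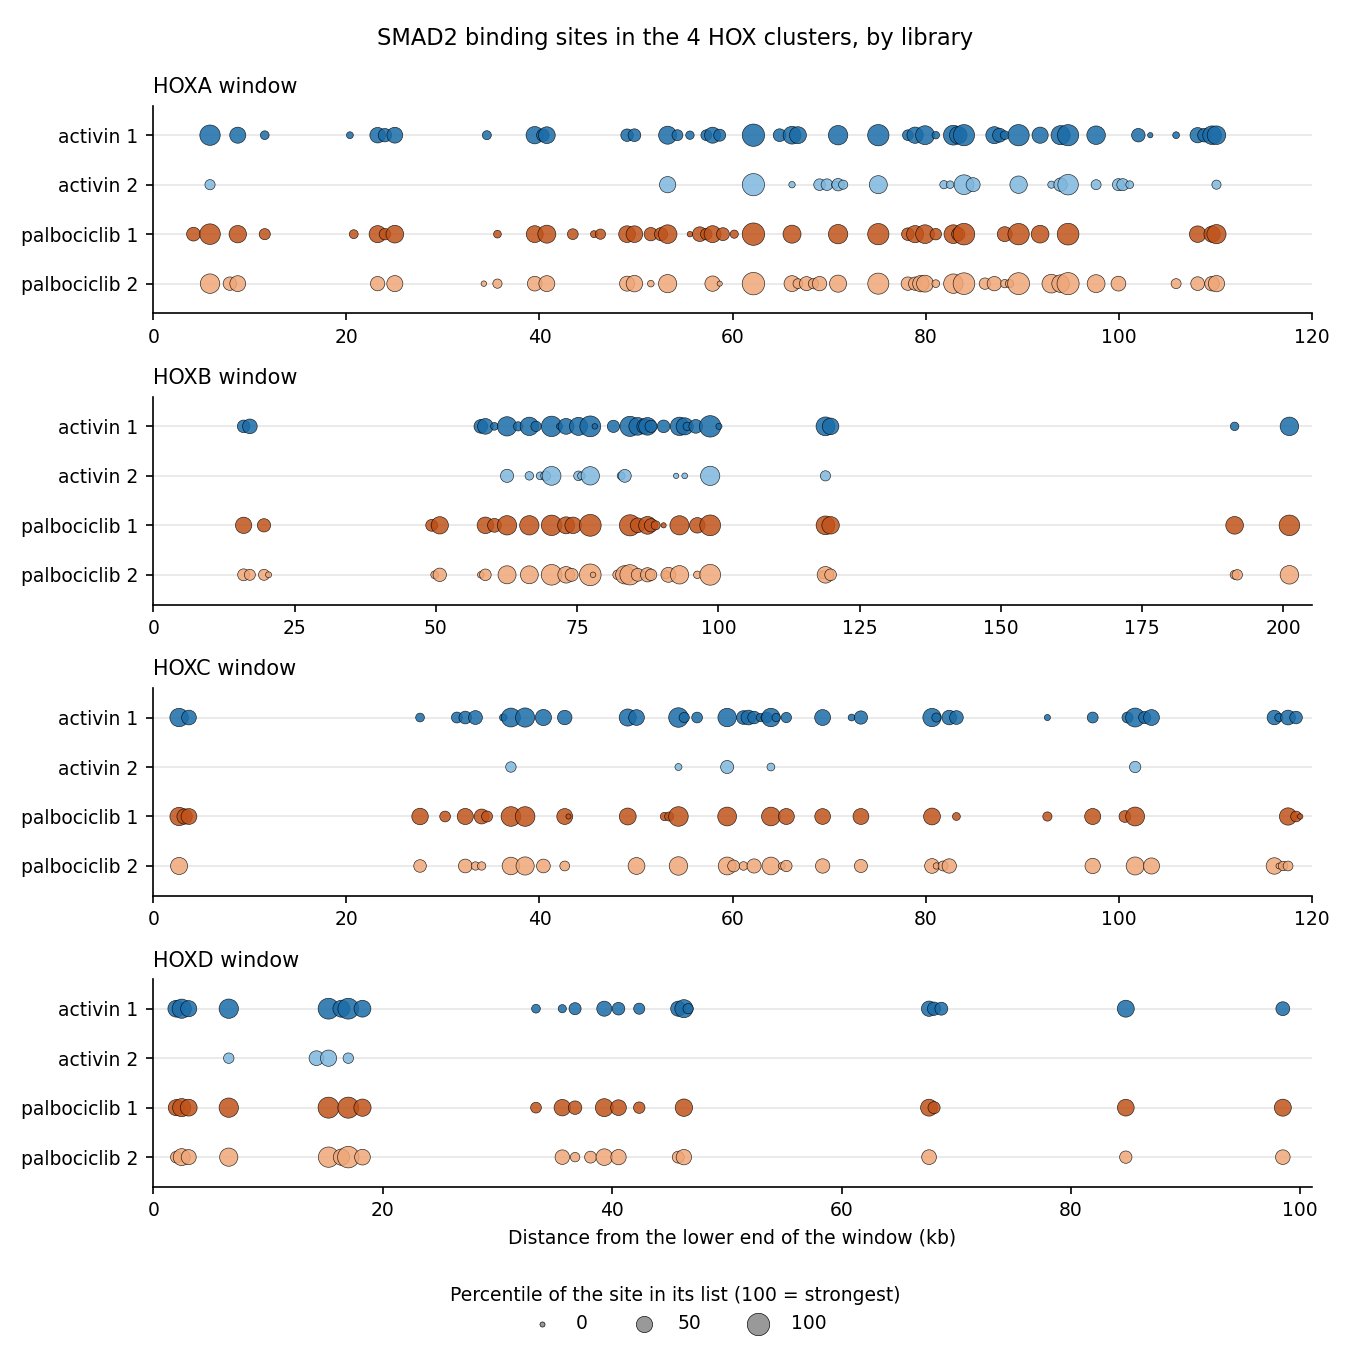
Each point is a SMAD2 binding site in one library (rows), placed by its distance from the lower end of the HOX window in kb (x axis); larger points rank higher in that library's list. Of the 208 sites, 24 recur in all 4 libraries and 50 in activin replicate 1 and both palbociclib libraries only. Another 84 occur in 1 library only. Activin replicate 2 is sparse outside HOXA and HOXB, and HOXB is empty for 71.4 kb.

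Where neighbouring summits of the 4 lists were at most 250 bp apart they were merged to 1 site, which gave 208 sites in the clusters and 36648 in the genome. HOXA held 76 sites, HOXB 53, HOXC 55 and HOXD 24. Neighbouring sites lay close together, with a median spacing of 0.887 kb in HOXA, 0.955 kb in HOXB, 0.793 kb in HOXC and 1.23 kb in HOXD, against 1.67 kb over all sites. Of the 208 sites, 24 were found in all 4 libraries, or 11.5%, against 15.9% of all sites. These were 10 in HOXA, 6 in HOXB, 5 in HOXC and 3 in HOXD. Another 52 occurred in 3 libraries, 48 in 2 and 84 in 1.

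The most frequent combination was a site missing in activin replicate 2 alone. It covered 50 of the 208 HOX sites, or 24.0%, near the 22.5% of all sites. The share was highest in HOXD, with 12 of 24 sites (50.0%), while HOXA had 16 of 76, HOXB 11 of 53 and HOXC 11 of 55. Among these 50, the median percentile of a site among the sites of its library was 47.1 in the remaining activin library and 54.1 and 39.3 in the palbociclib libraries. The strongest, chosen after its values were seen, was HOXB +84.4 kb (chr17:46689316-46689390). Its percentile was 79.4 in the remaining activin library and 88.2 and 80.7 in the palbociclib libraries. The neighbouring site HOXB +83.4 kb (chr17:46688371-46688496) did hold a summit of activin replicate 2, with a score of 6.09. With activin replicate 2 left out, 74 HOX sites were common to the other 3 libraries.

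Activin replicate 2 also had HOX sites of its own. Sites found there and in no other library numbered 14 in the clusters, or 6.73% of the HOX sites, against 1.93% of all sites. Of its 46 HOX sites, 69.6% were found in another library (Wilson 95% interval 55.2 to 80.9), against 90.2% of its 7220 sites in the genome. In activin replicate 1 the share was 79.0% in the clusters and 80.6% in the genome. In the palbociclib replicates it was 82.9% and 84.1% in the clusters and 74.5% and 89.6% in the genome. HOXA held 8 of the 14 sites, HOXB 5 and HOXD 1. Their scores were low, from 2.02 to 7.51 with a median of 3.63. Each of the 14 lay within 2000 bp of a summit of another library, at a median distance of 660 bp, and 97.7% of all such sites of this library did so.

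**Figure D3:**
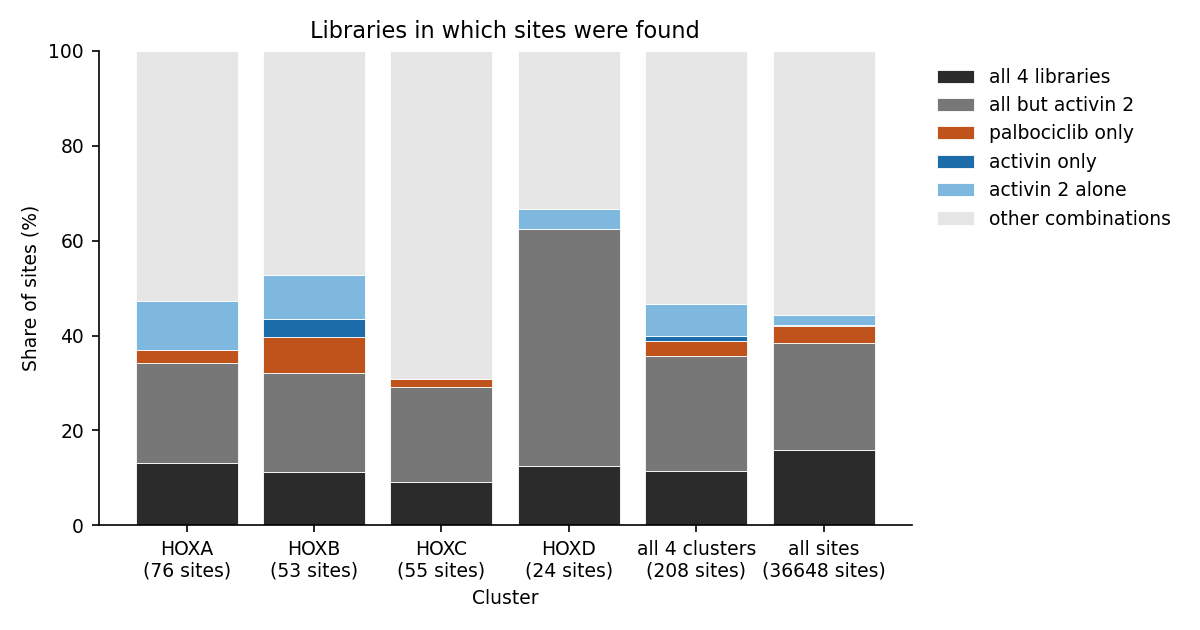
Stacked bars give the share of sites (y axis, percent) found in each combination of libraries, for each HOX cluster, for the 4 clusters together and for all 36648 sites. Sites missing in activin replicate 2 alone make up 50.0% in HOXD, and sites in activin replicate 2 alone make up 10.5% in HOXA against 1.93% of all sites.

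In HOXC, 10 of the 55 sites, or 18.2%, were found in activin replicate 1 and palbociclib replicate 2 alone. Over the 4 clusters 19 sites, or 9.13%, had this combination, against 3.77% of all sites.

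Palbociclib-only sites made up about the same share of the HOX sites as of all sites, and activin-only sites were 2 in number. Sites that both palbociclib libraries held and both activin libraries lacked numbered 7, or 3.37% of the HOX sites, against 3.56% of all sites. The reverse, held under activin and lacking under palbociclib, applied to 2 sites, or 0.962%, against 0.344%. The palbociclib-only sites were 4 in HOXB, 2 in HOXA and 1 in HOXC. The best-ranked was HOXB +50.7 kb (chr17:46655674-46655699), with scores of 21.8 and 7.95 in the palbociclib libraries and the nearest activin summit 7275 bp away. HOXB +19.6 kb (chr17:46624500-46624665) had scores of 7.02 and 5.42 and an activin summit 2424 bp away. HOXB +96.3 kb (chr17:46701261-46701268), HOXC +34.0 kb (chr12:54363957-54364057) and HOXA +51.5 kb (chr7:27181492-27181577) had an activin summit within 272, 504 and 1660 bp. Both activin-only sites were in HOXB. HOXB +75.2 kb (chr17:46680207-46680275) had scores of 24.9 and 4.17 in the activin libraries, at percentiles of 62.8 and 14.1 among their sites, and HOXB +94.0 kb (chr17:46699002-46699070) had 18.2 and 2.47. A palbociclib summit lay 918 bp from the first and 839 bp from the second. Counted as absent only where the other treatment had no summit within 2000 bp, 3 sites stayed palbociclib-only and 0 activin-only. Sites lie closer together in the clusters than over the genome, so this rule is harder to meet there. The share over all sites under it is not given, and the drop is not a result about the HOX sites.

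The strongest HOX site lay near the middle of HOXA, at HOXA +62.2 kb (chr7:27192151-27192175). Its summits in the 4 libraries fell within 24 bp. Among all sites of its library it ranked 289 and 151 from the top under activin and 111 and 62 from the top under palbociclib. Its scores were 162, 40.2, 357 and 217 in the same order. To compare libraries, ranks were then taken over the 5829 sites found in all 4, again as percentiles with 100 for the strongest. On that scale it stood at 95.2 and 97.5 in the activin libraries and 98.1 and 99.0 in the palbociclib libraries. Both palbociclib values lay above both activin values, but the difference of 2.22 ± 3.85 percentile points (SE) was smaller than its error (limma adjusted p = 0.797). With a score of at least 20 required in every library, it was the 1 HOX site left in all 4.

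A group of 4 further strong sites followed above the midpoint of HOXA, towards HOXA13. HOXA +94.8 kb (chr7:27224742-27224777) stood at 52.4 and 79.8 in activin replicates 1 and 2 and at 69.3 and 89.8 in palbociclib replicates 1 and 2. HOXA +84.0 kb (chr7:27213936-27214010) stood at 52.4 and 71.9 against 63.2 and 77.1. In both sites each replicate 2 library was above the replicate 1 library of its treatment, and the treatments overlapped. HOXA +89.6 kb (chr7:27219626-27219637) stood at 55.8 and 52.2 in the activin libraries and at 56.0 and 82.4 in the palbociclib libraries. HOXA +75.1 kb (chr7:27205073-27205129) stood at 57.4 and 57.2 against 52.9 and 62.0. Their differences of palbociclib minus activin ranged from 0.14 to 15.2 percentile points, with limma adjusted p from 0.486 to 0.992. HOXA +5.9 kb (chr7:27135836-27135908), the strongest near the lower end of the window, was lower, at 30.0 and 12.3 against 32.4 and 28.0. HOXA +53.3 kb (chr7:27183221-27183332) was at 3.11 and 44.3 in the activin libraries and at 4.42 and 12.8 in the palbociclib libraries, so the activin replicates lay further apart than the treatments. Its difference was -15.1 points, and 9.48 without activin replicate 2. HOXA +70.9 kb (chr7:27200908-27200960) was at 11.8 and 22 against 10.1 and 4.96.

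Of the 6 HOXB sites found in all libraries, both palbociclib libraries lay above both activin libraries at 2 and below both at 2. HOXB +77.3 kb (chr17:46682314-46682330) stood at 42.3 and 60.1 in the activin libraries and at 74.4 and 78.0 in the palbociclib libraries. The groups did not overlap, and the difference was 25 ± 7.69 percentile points (SE; limma adjusted p = 0.201). HOXB +98.5 kb (chr17:46703528-46703557) stood at 62.0 and 68.1 in the activin libraries and at 36.8 and 53.9 in the palbociclib libraries. Here the palbociclib libraries were both lower, by -19.7 ± 7.67 points (limma adjusted p = 0.265). Neither difference passed the threshold of 0.05. Without activin replicate 2, with ranks over the sites common to the other 3 libraries, they were 15.0 points at HOXB +77.3 kb and -8.07 at HOXB +98.5 kb. HOXB +70.5 kb (chr17:46675421-46675529) overlapped between the groups, at 30.1 and 63.8 against 28.6 and 50.6. HOXB +62.6 kb (chr17:46667513-46667675) also overlapped, at 10.4 and 25.6 against 9.52 and 10.7. The groups did not overlap at HOXB +66.5 kb (chr17:46671455-46671625), with 4.32 and 7.35 against 9.52 and 9.42. Nor did they at HOXB +118.9 kb (chr17:46723908-46723977), with 6.58 and 12.3 against 4.59 and 3.40.

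HOXD held a pair of neighbouring sites towards HOXD13. HOXD +15.3 kb (chr2:176970251-176970300) had nearly the same rank in every library, at 41.8 and 44.3 in the activin libraries and 44.0 and 43.4 in the palbociclib libraries. HOXD +17.0 kb (chr2:176971970-176972030) stood at 41.8 and 13.4 against 46.5 and 72.4. Its difference, 31.8 ± 14.6 points, had the largest size among the 24 HOX sites, and its limma adjusted p was 0.321. In the replicate 1 libraries alone the values were 41.8 and 46.5, and without activin replicate 2 the difference was 7.65 points. HOXD +6.6 kb (chr2:176961495-176961657) ranked low among the common sites, at 10.7 and 13.4 against 9.52 and 12.4. Among all sites of its library it stood at 72.9 and 17.6 against 72.8 and 64.1.

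The 5 HOXC sites found in all libraries ranked low among the 5829 common sites, with percentiles between 3.46 and 25.2. Among all sites of a library they did not rank low outside activin replicate 2. HOXC +54.4 kb, for example, stood there at 74.4 and 4.75 in the activin libraries and 74.8 and 65.8 in the palbociclib libraries. The values that follow are again over the common sites. HOXC +59.4 kb (chr12:54389346-54389537) was at 4.58 and 25.2 in the activin libraries and 5.17 and 9.15 in the palbociclib libraries. HOXC +54.4 kb (chr12:54384377-54384415) was at 12.9 and 3.46 against 12.9 and 14.4. HOXC +37.0 kb (chr12:54366947-54367135) and HOXC +101.7 kb (chr12:54431660-54431752) differed by 0.15 ± 4.98 and -4.02 ± 5.41 percentile points between treatments, within their errors.

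Over the 24 HOX sites, the limma fit across all 5829 common sites called 0 higher and 0 lower after palbociclib at an adjusted p of 0.05. The background was 0% in each direction, since the fit called 0 of the 5829 sites as well. At an unadjusted p of 0.05 limma gave 1 of the 24 HOX sites, HOXB +77.3 kb, and 1252 of the 5829 common sites. The median difference was 0.15 percentile points over the HOX sites and -0.57 over all common sites, and the HOX values ranged from -19.7 to 31.8. Both palbociclib libraries lay above both activin libraries at 6 of 24 HOX sites, or 25%, against 26.2% of all common sites. They lay below at 3 of 24, or 12.5%, against 28.2%. The mean percentile over the libraries was under 25 at 13 of the 24 HOX sites, against 22% of all common sites, and at least 75 at 1 of them, against 21.9%. Its median was 15.1 over the HOX sites and 49.1 over all. Leaving out activin replicate 2 turned the sign of the difference at 6 of the 20 named sites, none of which had passed the threshold.

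**Figure D4:**
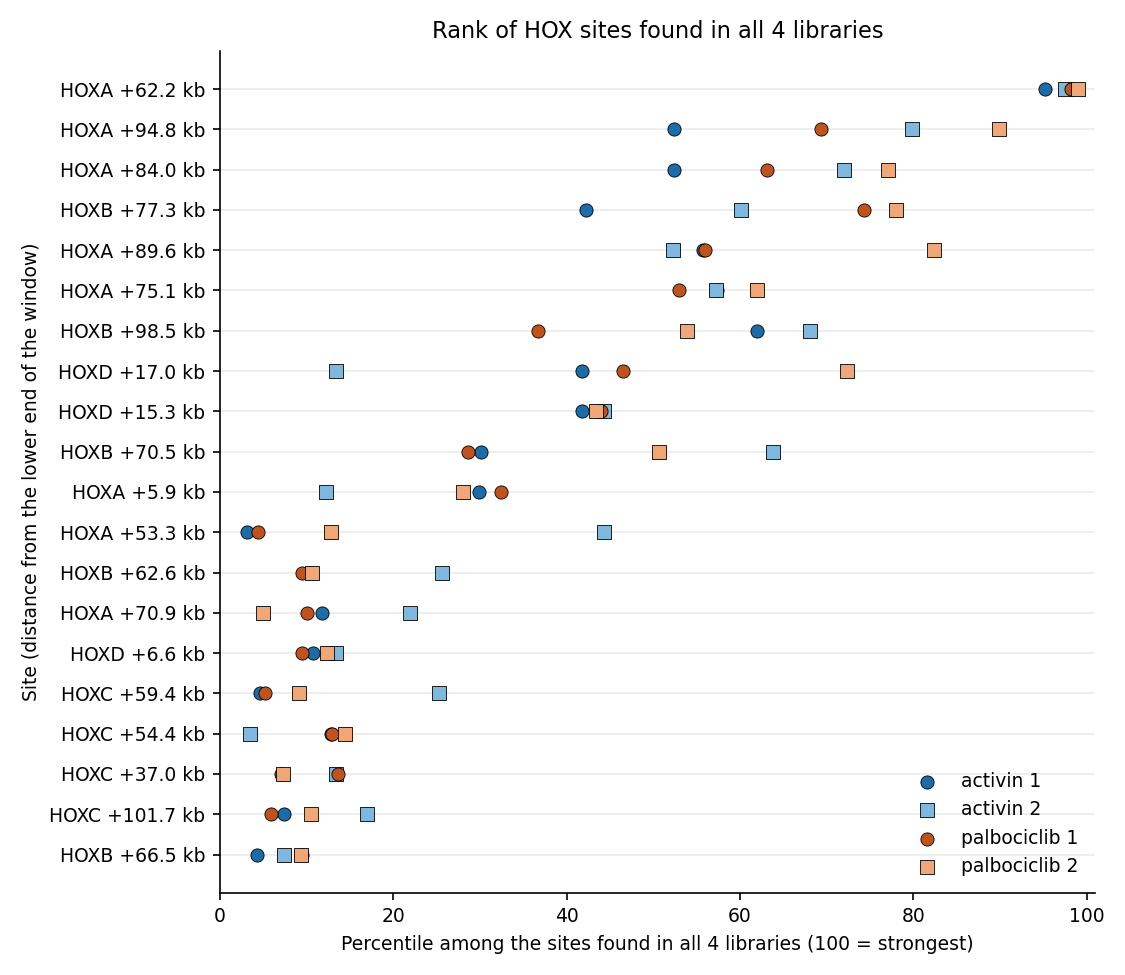
For the 20 best-ranked HOX sites common to all libraries (y axis, cluster and distance from the lower end of the window), points give the percentile among the 5829 common sites (x axis, 100 = strongest) in each library. HOXA +62.2 kb is above 95 in every library. Of all 24 common HOX sites, both palbociclib libraries lie above both activin libraries at 6, among them HOXB +77.3 kb. They lie below at 3, among them HOXB +98.5 kb.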

How the data were processed

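SMAD2 ChIP-seq summit lists of 4 libraries were analysed; the 2 input libraries were not analysed as data of their own. The submitters' processing notes name MACS2 2.0.9, Bowtie 1.1.0, Picard and the build hg19, without roles or settings. Per the labels, MACS2 called peaks with the input of the matching treatment. The authors' deposited score is on a −log10 scale. It was read as −log10 of a p- or q-value from the lowest scores, 1.31 to 1.4, just above 1.30 (−log10 of 0.05). It grows with depth, which is unknown, so it served only for ranks and filters.

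Summits were taken from 1-base BED records, written 1-based; 0 lay off the autosomes and sex chromosomes, and 0 lay at a window edge. Neighbouring summits at most 250 bp apart were merged to 1 site. A site's score was its best summit's. Percentiles over the sites common to all 4 libraries were fitted with limma 3.58.1 (R 4.3.3), unblocked, with Benjamini-Hochberg adjustment over all of them. Shares of the list were compared by an exact permutation test. The fit and the joining were tested on simulated data. Named sites are the 20 common HOX sites with the best mean percentile, the best of each cluster, and up to 5 palbociclib-only and 5 activin-only sites. The members, windows and lists were chosen with earlier results of these data known. Python 3.11.15, numpy 2.4.6, pandas 2.3.3 and matplotlib 3.10.9 were used. Alternatives covered score minimums, joining distance, wider windows, equal-length lists, other rank scales, a replicate block and leaving out each library. Gene names and promoters come from RefSeq (GRCh38.p14) and were not tied to sites.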

Additional observations from a re-analysis of the deposited data

How the results depend on the processing

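The call of 0 HOX sites higher and 0 lower held under every alternative that kept all 4 libraries. Limma called 0 of all common sites under each of these as well, so the HOX count had to be 0. The differences at the 20 named common sites changed sign in 17 of 224 values over all alternatives. The values with wider windows or a replicate block equal the main ones by construction and could not change sign. Leaving out activin replicate 2 gave 6 of the 17 changes. The number of HOX sites in all 4 libraries, 24, was 14 with scores of at least 5, 1 with scores of at least 20 and 12 in lists of equal length (the 7241 best-scored summits of each). Leaving out 1 library at a time gave 23 to 74, the highest without activin replicate 2. The 7 palbociclib-only sites became 0 with scores of at least 20, 1 in equal-length lists and 3 with absence required within 2000 bp. They ranged from 7 to 55 with a library left out, the highest without activin replicate 1. The 2 activin-only sites became 0 with scores of at least 5 or at least 20, 1 in equal-length lists and 0 with absence within 2000 bp. With a library left out they ranged from 2 to 32, the highest without activin replicate 2; fewer lists decide then, which eases both calls by construction. The median rank difference of 0.15 points was 15.0 with scores of at least 20, where 1 HOX site was left, 4.05 in equal-length lists, 1.46 with scores of at least 5, and -1.67 to 2.27 with a library left out. The log2 ratio of the HOX share, -0.17, was 0.22 and 0.80 with scores of at least 5 and 20, -0.62 in equal-length lists and -0.48 to 0.14 with a library left out, so its sign was not stable; its exact p-values were 0.333 to 1. The numbers of common sites where both palbociclib libraries lay above (6) or below (3) ranged from 1 to 35 and from 0 to 19. Both highest counts came without activin replicate 2, out of 74 common HOX sites and with 1 activin library deciding. These ranges are thus not a spread around 6 and 3 of 24, and the matching shares over all common sites are not given here. With a replicate block, the log2 ratio (-0.17) and the median difference (0.15) stayed the same by construction. The exact sign-flip test of the log2 ratio gave p = 1 (smallest 0.5), and limma called 0 sites. The labels do not say what a replicate number shares, and the deviations of same-numbered libraries correlated at 0.264 across the 5829 sites. The numbers of tiles as dense as each cluster, in tiles shifted by 50% of a tile or without activin replicate 2 (added after the data were seen), stayed at 0 for HOXA and 2 for HOXC and were 9 to 18 for HOXB and 31 to 37 for HOXD.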

Other observations

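At the 24 common HOX sites, each with 1 summit per library, the summits of the 4 libraries spanned a median of 64.5 bp, from 10 to 295 bp, against 46 bp over the 5812 such sites of the genome. The tightest was HOXC +64.0 kb (chr12:54393969-54393979), named after its values were seen, and the widest was HOXA +66.2 kb (chr7:27196013-27196308), the lowest of the 24 in mean rank among the 5829 common sites, at percentiles of 2.17 to 2.47 over the libraries.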
